A study of Homo sapiens with 6 samples.

Results

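The polyamine genes described here are 10 enzymes and regulators that make, modify or break down putrescine, spermidine and spermine: ODC1, AMD1, SRM, SMS, SAT1, SMOX, PAOX, OAZ1, OAZ2 and AZIN1. They were chosen by name, and all 10 were found among the 60107 gene IDs of the count table. RNA was sequenced from H9, an established human embryonic stem cell line, after 9 days of a 10-day protocol that steers the cells toward nephron progenitors, the cells from which the filtering units of the kidney form. All 6 libraries went through that protocol in the same cell line. The 3 libraries of the group with glutamine came from cells in complete medium, and the 3 of the group without came from cells deprived of glutamine from day 0 through day 9. The labels do not say whether libraries of a group came from separate cultures, so p-values measure the spread between these samples, which may be technical.

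Polyamines are small positively charged molecules that bind RNA and DNA and that dividing cells need. ODC1 converts ornithine to putrescine, and SRM and SMS extend putrescine to spermidine and spermine with aminopropyl groups that AMD1 provides from S-adenosylmethionine. SAT1 acetylates spermidine and spermine, PAOX oxidises the acetylated forms, and SMOX oxidises spermine directly. Antizymes OAZ1 and OAZ2 bind ODC1 protein and send it to the proteasome, and AZIN1 resembles ODC1 and captures antizymes. Glutamine is a source of ornithine through glutamate, with ALDH18A1 and OAT on that route. Much of the control of these genes acts on translation and protein stability, which RNA counts do not measure.

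Sites for such translational control lie in the transcripts of several of these genes. The antizyme sequences are shown because antizyme protein is made only when the ribosome slips by 1 base at a stop codon, a step that polyamines favour. Each window is 60 bases of the coding strand, with the last codon of the first frame and the stop codon in capitals. That of OAZ1 lies at chr19:2271413-2271472 on the plus strand and that of OAZ2 at chr15:64691486-64691545 on the minus strand (GENCODE 29, GRCh38).
OAZ1: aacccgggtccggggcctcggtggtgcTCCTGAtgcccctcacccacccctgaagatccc
OAZ2: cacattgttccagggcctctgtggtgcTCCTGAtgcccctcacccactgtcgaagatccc
The windows shared 49 of 60 bases. The first frame stopped after 68 codons in OAZ1 and after 32 in OAZ2, while the shifted frames of the annotated coding transcripts ran to 228 and 189 codons.
The leader of AMD1 holds a short upstream reading frame at which ribosomes are known to pause when polyamines are plentiful, and it is shown with its start and stop codons in capitals.
AMD1: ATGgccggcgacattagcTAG
This frame had 6 sense codons and covered bases 27 to 47 of the 336-base leader of the annotated principal transcript.

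The libraries held 78220507 to 84746566 counts. Replicate 1 with glutamine stood apart from its group. On log2 CPM (counts scaled to library size), its Pearson's r over genes averaged 0.976 with its own group and 0.992 with the libraries lacking glutamine, and genes are not independent points. The result for each of the 10 genes is therefore given also without that library. It was singled out by its likeness to the other group. Without it the common dispersion, edgeR's measure of spread within groups, fell from 0.0408 to 0.0083. The p-values and intervals of fits without that library are therefore optimistic and are read as descriptions. Of 12 nephron progenitor and intermediate mesoderm markers, 12 passed the filter on low counts, and their summed level was 984 to 1665 CPM with glutamine and 1543 to 2067 CPM without. Of these, 7 had positive log2 fold changes and 5 negative ones. HOXD11, a posterior kidney regulator, had 44, 0 and 1 counts with glutamine in replicates 1, 2 and 3, and 277 to 475 without. Among the 5 markers of undifferentiated stem cells, POU5F1 had 3 to 13 counts, NANOG 0 or 1 and DPPA3 1 to 7, whereas SOX2 had 931 to 1767 and ZFP42 561 to 926.

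Per unit of transcript length, ODC1 was the most abundant of the 10 genes and the oxidases were the least. Levels are given as RPKM (CPM per kilobase) over the annotated principal transcript, as the median over the 6 libraries with the lowest and highest in parentheses. ODC1 was at 296 RPKM (242 to 339) and OAZ1 at 201 RPKM (167 to 212), with no overlap between these ranges. SAT1 was at 116 RPKM (73.1 to 139.8) and SMS at 70.9 RPKM (56.25 to 84.8). Below these genes came OAZ2 at 63.1 RPKM (58.1 to 65.15), AZIN1 at 57.15 RPKM (48.6 to 61.4) and AMD1 at 51.8 RPKM (43.8 to 62.8). The range of SAT1 overlapped that of SMS and lay above those of OAZ2, AZIN1 and AMD1, while the ranges of SMS, OAZ2, AZIN1 and AMD1 overlapped each other. SRM was at 32.9 RPKM (27.6 to 37.7), below the range of every gene named so far. SMOX was at 3.77 RPKM (3.67 to 3.885) and PAOX at 1.81 RPKM (1.21 to 1.96). The order depends on the length used. Over all annotated exons, which include retained introns, OAZ1 was at 67.3 RPKM and OAZ2 at 15.9 RPKM, and OAZ2 then lay below SRM at 21.95 RPKM.

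**Figure D1:**
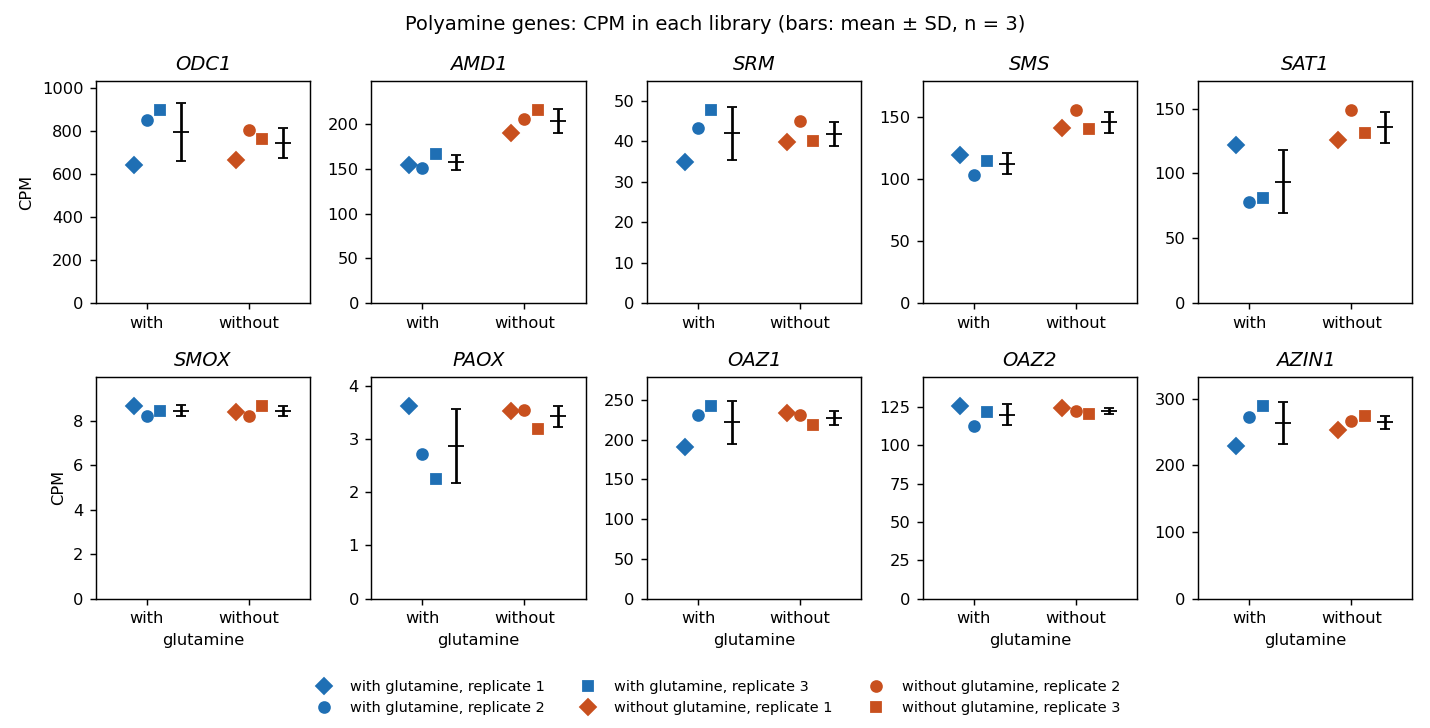
CPM of each polyamine gene (vertical axis, from 0) in the libraries with and without glutamine, with the mean ± SD of each group (n = 3) to the right of its points. AMD1, SMS and SAT1 are the 3 genes whose groups do not overlap, and SAT1 in replicate 1 with glutamine (blue diamond, 122 CPM) lies near the libraries without.

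Without glutamine, AMD1, SMS and SAT1 transcripts lay above their levels with glutamine in every library, by 1.30-fold, 1.30-fold and 1.445-fold. ODC1, SRM, SMOX, PAOX, both antizymes and AZIN1 had overlapping groups. None of the 10 genes passed edgeR's quasi-likelihood test at a Benjamini-Hochberg adjusted p under 0.05, where 0.00442% of the 22613 genes tested did. At an unadjusted p under 0.05 edgeR gave 3 of 10, all higher without glutamine, against 29.7% of all genes tested in either direction and 14.7% that were higher. The groups did not overlap for the same 3 of 10, against 34.2% of all genes, 17.3% higher and 16.9% lower without glutamine. The shares in either direction are near those of all genes and are no result about polyamine genes as a set. DESeq2 called AMD1, SMS and SAT1, 3 of 10, against 14% of the genes it adjusted over and 7.54% called higher, and limma-voom called 0. All 10 genes passed the filter on low counts. Their median log2 fold change was 0.03, against 0.00 over all genes tested, and the median of its absolute value was 0.07, against 0.25. The genes compared were not matched for level, so these medians do not show that polyamine genes differed less than others.

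Without replicate 1 with glutamine, edgeR called 4 of the 10 genes, AMD1, SMS, SAT1 and PAOX, all higher without glutamine. The share of all 23164 genes called in that fit was 41.3%, with 22.3% higher and 19% lower, so the count of 4 is again near the background. DESeq2 called the same 4 of 10 in that comparison, against 33.6% of the genes it adjusted over and 18.5% called higher. The groups then did not overlap for 5 of 10 genes, the 4 named and ODC1, which was lower, against 63.4% of all genes, 32.1% higher and 31.3% lower. The median absolute log2 fold change was then 0.17 over the 10 genes and 0.32 over all genes tested, again not matched for level.

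**Figure D2:**
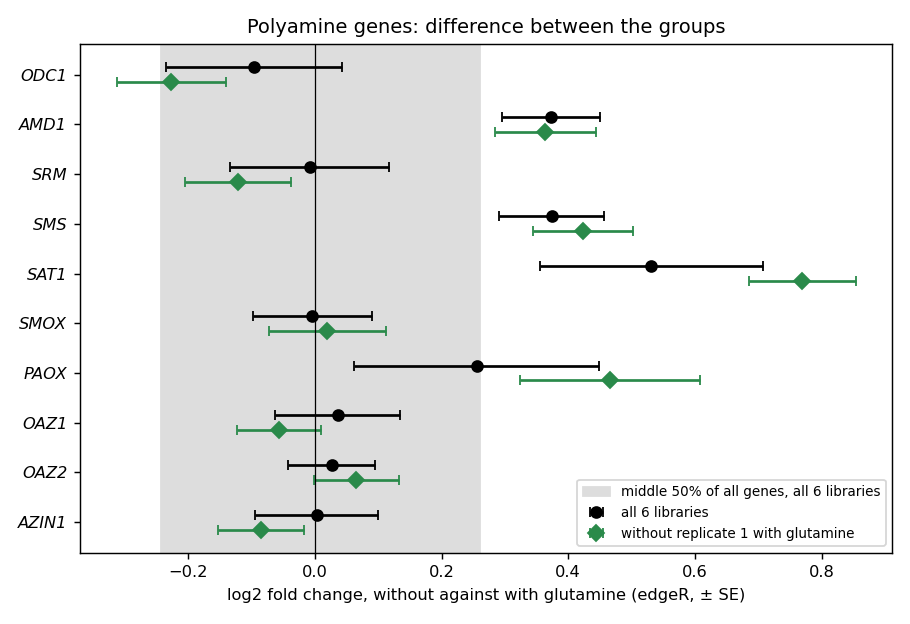
Log2 fold change (horizontal axis, without against with glutamine, edgeR, ± SE) of each polyamine gene with all 6 libraries (black circles) and without replicate 1 with glutamine (green diamonds). The grey band holds the middle 50% of all genes in the fit with all 6 libraries, from -0.24 to 0.26, and AMD1, SMS and SAT1 (black) lie to its right. For the other fit that range, not drawn, is -0.2927 to 0.3638, with AMD1 (0.3636) inside its upper edge and SMS, SAT1 and PAOX above it.

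Among the 4 synthesis enzymes, AMD1 and SMS lay higher without glutamine in every library, whereas the groups of ODC1 and SRM overlapped. ODC1 (ENSG00000115758, chromosome 2, 10439968 to 10448504, minus strand), the rate-limiting enzyme, read 642, 850 and 899 CPM with glutamine and 667, 806 and 764 CPM without, here and below in the order of replicates 1, 2 and 3. The lowest of the 6 libraries was replicate 1 with glutamine, and the groups overlapped. The fold was 0.94 (95% interval 0.75 to 1.17, log2 fold change -0.10, SE 0.14, edgeR adjusted p 0.664). Without replicate 1 with glutamine both remaining libraries of that group lay above all 3 without, at a fold of 0.85 (0.75 to 0.98), and the edgeR adjusted p was 0.0592.

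AMD1 (ENSG00000123505, chromosome 6, 110874770 to 110895713, plus strand), which supplies the aminopropyl donor, was at 154.5, 151 and 167 CPM with glutamine and at 190 to 216 CPM without. All libraries without glutamine were higher, and replicate 1 with glutamine lay between the other libraries of its own group. The means were 157 ± 8.36 and 204 ± 13.2 CPM (SD, n = 3). Its fold was 1.30 (95% interval 1.14 to 1.47, log2 fold change 0.37, SE 0.08). The edgeR adjusted p was 0.0691 with all libraries, 0.00521 without replicate 1 with glutamine, and 0.0108 from DESeq2.

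SMS (ENSG00000102172, chromosome X, 21940573 to 21994835, plus strand) makes spermine from spermidine. It was at 119.8, 103 and 115 CPM with glutamine and at 141, 156 and 141 CPM without. The groups did not overlap, and replicate 1 was the highest of those with glutamine. The means were 113 ± 8.43 and 146 ± 8.59 CPM (SD, n = 3). SMS had a fold of 1.30 (95% interval 1.13 to 1.48, log2 fold change 0.37, SE 0.08). The edgeR adjusted p was 0.0706 with all libraries, 0.00214 without replicate 1 with glutamine, and 0.0119 from DESeq2.

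SRM (ENSG00000116649, chromosome 1, 11054584 to 11060024, minus strand), which makes the spermidine that SMS uses, was at 34.9, 43.2 and 47.7 CPM with glutamine and at 39.8, 45.1 and 40.2 CPM without. Its lowest library was replicate 1 with glutamine and its highest replicate 3 of the same group. The fold was 0.99 (95% interval 0.81 to 1.22, edgeR adjusted p 0.969), and it was 0.92 without replicate 1 with glutamine (adjusted p 0.279).

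Among the breakdown enzymes, the groups were apart for SAT1 and overlapped for SMOX and PAOX. SAT1 (ENSG00000130066, chromosome X, 23783173 to 23786226, plus strand), the acetyltransferase that starts polyamine breakdown and export, was at 122, 77.9 and 81.3 CPM with glutamine and at 126, 149 and 131 CPM without. In replicate 1 with glutamine SAT1 was 1.53 times the mean of the other libraries of its group and lay just under the libraries without glutamine. The means were 93.7 ± 24.4 and 135 ± 12.0 CPM (SD, n = 3). The fold change was 1.445 (95% interval 1.085 to 1.93, log2 fold change 0.53, SE 0.18, edgeR adjusted p 0.11). Without that library the fold was 1.70 (1.495 to 1.94), the largest of the 10 genes, with an edgeR adjusted p of 8.9e-05. DESeq2 gave an adjusted p of 0.0316 with all libraries. SAT1 is also controlled by splicing of a cassette exon that exposes the transcript to decay, and counts per gene do not separate such transcripts.

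SMOX (ENSG00000088826, chromosome 20, 4120980 to 4187747, plus strand) was at 8.68, 8.195 and 8.44 CPM with glutamine and at 8.38, 8.21 and 8.645 CPM without. All 6 libraries lay within a narrow range, with interleaved groups. The fold change was 0.997 (95% interval 0.86 to 1.16, edgeR adjusted p 0.979), and 1.01 without replicate 1 with glutamine (adjusted p 0.885). PAOX (ENSG00000148832, chromosome 10, 133379234 to 133391694, plus strand) was at 3.64, 2.73 and 2.25 CPM with glutamine and at 3.53, 3.56 and 3.20 CPM without. PAOX was highest in replicate 1 with glutamine, and the other libraries of its group were the lowest. PAOX had 177 to 304 counts in a library. The fold change was 1.19 (95% interval 0.87 to 1.64, edgeR adjusted p 0.398), and without replicate 1 with glutamine it was 1.38 (1.11 to 1.72, edgeR adjusted p 0.0255).

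The antizymes and the antizyme inhibitor had overlapping groups. OAZ1 (ENSG00000104904, chromosome 19, 2269509 to 2273490, plus strand) was at 191, 231 and 243 CPM with glutamine and at 234, 231 and 218 CPM without. It was lowest in replicate 1 with glutamine, and the fold change was 1.025 (95% interval 0.87 to 1.20, edgeR adjusted p 0.829). OAZ2 (ENSG00000180304, chromosome 15, 64687573 to 64703281, minus strand) was at 126, 112 and 122 CPM with glutamine and at 124, 122 and 120.3 CPM without. Its libraries without glutamine lay inside the range of those with it, and the fold change was 1.02 (95% interval 0.91 to 1.14, edgeR adjusted p 0.82). AZIN1 (ENSG00000155096) was at 229, 273 and 290.0 CPM with glutamine and at 253, 267 and 274 CPM without. Here too replicate 1 with glutamine was the lowest and the groups overlapped, at a fold of 1.002 (95% interval 0.855 to 1.17, edgeR adjusted p 0.987). Without that library none of these 3 genes was called by edgeR, with adjusted p of 0.522, 0.469 and 0.342. AZIN1-AS1, a gene on the opposite strand that shares exonic bases with AZIN1, had 289 to 342 counts in a library against at least 18610 for AZIN1.

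Ratios between genes of the same library do not depend on library scaling. They are given as descriptions, with no test, and their absolute size depends on the transcript lengths used. The SAT1 to ODC1 ratio of RPKM, breakdown against the first step of synthesis, was 0.473, 0.228 and 0.225 with glutamine and 0.471, 0.460 and 0.428 without. The first replicate with glutamine had the highest ratio of all 6 libraries, and the groups overlapped because of it. The SRM to SMS ratio was 0.423, 0.606 and 0.603 with glutamine and 0.408, 0.420 and 0.415 without. All libraries with glutamine were above those without, replicate 1 by little. The ODC1 to AMD1 ratio was 5.38, 7.32 and 6.99 with glutamine and 4.55, 5.09 and 4.58 without, again with no overlap. Its mean log2 difference, without minus with glutamine, was -0.46, and -0.59 without replicate 1 with glutamine. AMD1 and SMS also lay apart on their own, whereas ODC1 and SRM overlapped. The ODC1 to OAZ1 ratio, the enzyme against its main antizyme, was 1.45, 1.59 and 1.6 with glutamine and 1.24, 1.51 and 1.52 without, and these groups overlapped. The AZIN1 to OAZ1 ratio was 0.287 to 0.291 with glutamine and 0.264 to 0.305 without, with overlap. Replicate 1 with glutamine kept this ratio although both of its genes were at their lowest there. The ratios of ODC1 to OAZ2, ODC1 to AZIN1, SMOX to PAOX and SAT1 to PAOX also overlapped between groups.

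**Figure D3:**
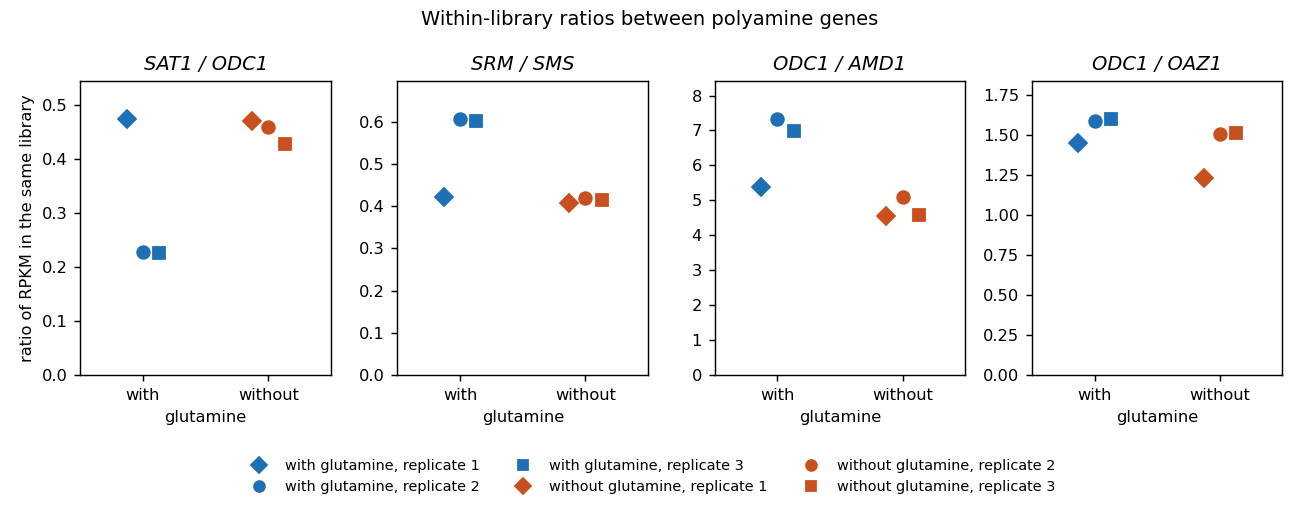
Ratio of RPKM between pairs of polyamine genes in the same library (vertical axes, from 0), with and without glutamine. For SAT1 to ODC1, replicate 1 with glutamine (0.473) lies with the libraries without glutamine (0.428 to 0.471), while for SRM to SMS and ODC1 to AMD1 the groups do not overlap.

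Across the 6 libraries the 10 genes fell into patterns that partly followed replicate 1 with glutamine. The following Pearson's r of log2 CPM are descriptions over 6 libraries that share their scaling, and 1 library can weigh heavily in them. ODC1 had r of 0.91 with SRM, 0.91 with AZIN1 and 0.71 with OAZ1, genes that were all lowest in replicate 1 with glutamine. AMD1 and SMS had r of 0.90, SMS and SAT1 0.91, and SAT1 and PAOX 0.87. ODC1 and PAOX had r of -0.81. Among the 10411 other genes with a mean of at least 10 CPM, those most like ODC1 were IVNS1ABP (r 0.998), PPME1 (0.995) and ZPR1 (0.993). Those most like SAT1 were IFITM2 (r 0.999), ERCC5 (0.998) and SLC27A3 (0.998). Without replicate 1 with glutamine, r with ODC1 was 0.996 for IVNS1ABP, 0.995 for PPME1 and 0.988 for ZPR1. For SAT1 it was then 0.999, 0.999 and 0.998, in the order named. These genes were picked as the highest of 10411 values over 6 libraries, so r near 1 shows no link to ODC1 or SAT1.

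Promoter windows, 250 bases before to 50 after an annotated start, were in the RefSeq table (GRCh38.p14) for 7 of the 10 genes, in 10 windows. SMOX, PAOX and AZIN1 had none in the table. Both strands were searched for the E-box CACGTG, bound by basic helix-loop-helix factors, for the amino acid response element core TGATGNAAN and for the antioxidant response element core TGACNNNGC. Among all 35116 windows of the table, 7.26%, 3.61% and 13.35% held them. The E-box was found in windows of ODC1 and SRM and of no other of the 7 genes, and those stretches are shown as the matches, with the E-box in capitals. That of ODC1 is at chr2:10447993-10448081 and that of SRM at chr1:11060172-11060257, both on the minus strand.
ODC1: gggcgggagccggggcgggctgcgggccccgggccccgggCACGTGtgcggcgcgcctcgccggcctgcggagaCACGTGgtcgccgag
SRM: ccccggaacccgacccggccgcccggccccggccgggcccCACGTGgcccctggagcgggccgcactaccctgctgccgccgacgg
The E-boxes of ODC1 began 29 bases before and at base 6 after the second annotated start, and that of SRM began 199 bases before its start. No GENCODE 29 exon of either gene overlapped these stretches. That of ODC1 lies inside the gene as GENCODE 29 places it (10439968 to 10448504), downstream of the other annotated start. The other window of ODC1 held 1 antioxidant response element core, and the windows of AMD1, SMS, SAT1, OAZ1 and OAZ2 held none of the 3 motifs. A match in these letters does not show binding, and a missing match says nothing about a factor.

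Of 27 other genes of polyamine metabolism, 26 passed the filter on low counts. AOC1, which oxidises putrescine, did not, at 0.03 to 0.15 CPM. EdgeR called 0 of the 26 with all libraries. Without replicate 1 with glutamine it called 11 of 26, near the 41.3% of all genes. Of these, 8 were higher and 3 lower, against 22.3% and 19% of all genes. At an unadjusted p under 0.05 edgeR gave 7 higher and 4 lower with all libraries, against 14.7% and 15% of all genes. Those called without replicate 1 with glutamine were SATL1, ARG2, OAT, ADI1, EIF5A, ATP13A2, ATP13A3 and SLC3A2, which were higher, and MTAP, EIF5A2 and DHPS, which were lower. The groups did not overlap for 9 higher and 4 lower genes, against 17.3% and 16.9% of all genes, and 34.2% in either direction. DESeq2 called 2, ARG2 and SLC3A2, both higher without glutamine, against 14% of the genes it adjusted over and 7.54% called higher, and limma-voom called 0. The median log2 fold change of the 26 genes was 0.10.

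In the precursor group, 3 of 8 genes lay higher without overlap and 0 lower, against 17.3% and 16.9% of all genes. ARG2, the mitochondrial arginase that makes ornithine, was at 8.05 ± 1.48 CPM in the presence of glutamine and 11.9 ± 0.523 CPM in its absence (SD, n = 3). On the log2 scale it differed by 0.57 (SE 0.14), with an edgeR adjusted p of 0.0771. Its replicate 1 with glutamine, at 9.76 CPM, lay between the other libraries of its group and those without. OAT, which links glutamate to ornithine, was at 63.1 ± 3.37 and 74.0 ± 6.54 CPM, with overlapping groups (edgeR adjusted p 0.142). ALDH18A1, the other enzyme of that route, was at 176 ± 5.14 and 196 ± 9.87 CPM with no overlap (edgeR adjusted p 0.177). The log2 fold changes were 0.44 for MAT1A and -0.35 for ARG1, both under 1 CPM in every library.

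In the transport group, 3 of 5 genes lay higher and 1 lower without overlap, against the same 17.3% and 16.9% of all genes. SLC3A2, the heavy chain shared by several amino acid exchangers and linked to putrescine export, was at 94.7, 92.5 and 97.7 CPM with glutamine and at 118, 145 and 126 CPM without. Replicate 1 was level with its own group. It differed by 0.45 on the log2 scale (SE 0.09), with an edgeR adjusted p of 0.0689, and DESeq2 gave an adjusted p of 0.00378. The polyamine transporters ATP13A3 and ATP13A2 had log2 fold changes of 0.23 and 0.25 (edgeR adjusted p 0.126 and 0.163, and 0.00393 and 0.00418 without replicate 1 with glutamine), and ATP13A4, at under 1.1 CPM, had -0.52.

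Spermidine is the donor for hypusine, a modified lysine found on EIF5A, and DHPS and DOHH carry out its formation. Mean levels of EIF5A were 120.0 ± 2.55 CPM in the presence of glutamine and 135 ± 5.16 CPM in its absence (SD, n = 3), with no overlap (edgeR adjusted p 0.134). DHPS lay lower without overlap, at 58.5 ± 3.28 and 51.2 ± 3.02 CPM (edgeR adjusted p 0.165), and so did the paralog EIF5A2, at 4.93 ± 0.225 and 3.96 ± 0.316 CPM (0.142). DOHH was at 4.45 ± 0.81 and 5.79 ± 1.17 CPM, with overlapping groups (0.238). Of these 4 genes 1 lay higher and 2 lower without overlap, against 17.3% and 16.9% of all genes. The same shares apply to the salvage genes and paralogs below. Among the 5 methionine salvage genes, which recycle the by-product of SRM and SMS, ADI1 and APIP lay higher without overlap, at log2 fold changes of 0.30 and 0.10, and MRI1 had -0.16 with overlap. MTAP, the first enzyme of that route, was at 140 ± 12.3 and 123 ± 2.36 CPM (edgeR adjusted p 0.192, and 0.0116 without replicate 1 with glutamine). Among paralogs, OAZ3 lay lower without overlap at under 1 CPM (log2 fold change -0.67, edgeR adjusted p 0.117). SATL1 was under 1 CPM in every library (log2 fold change 1.30, edgeR adjusted p 0.186). Without replicate 1 with glutamine its log2 fold change was 2.67 (edgeR adjusted p 0.00154), at 2 to 28 counts a library. AZIN2 and SAT2 had log2 fold changes of -0.11 and 0.03.

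**Figure D4:**
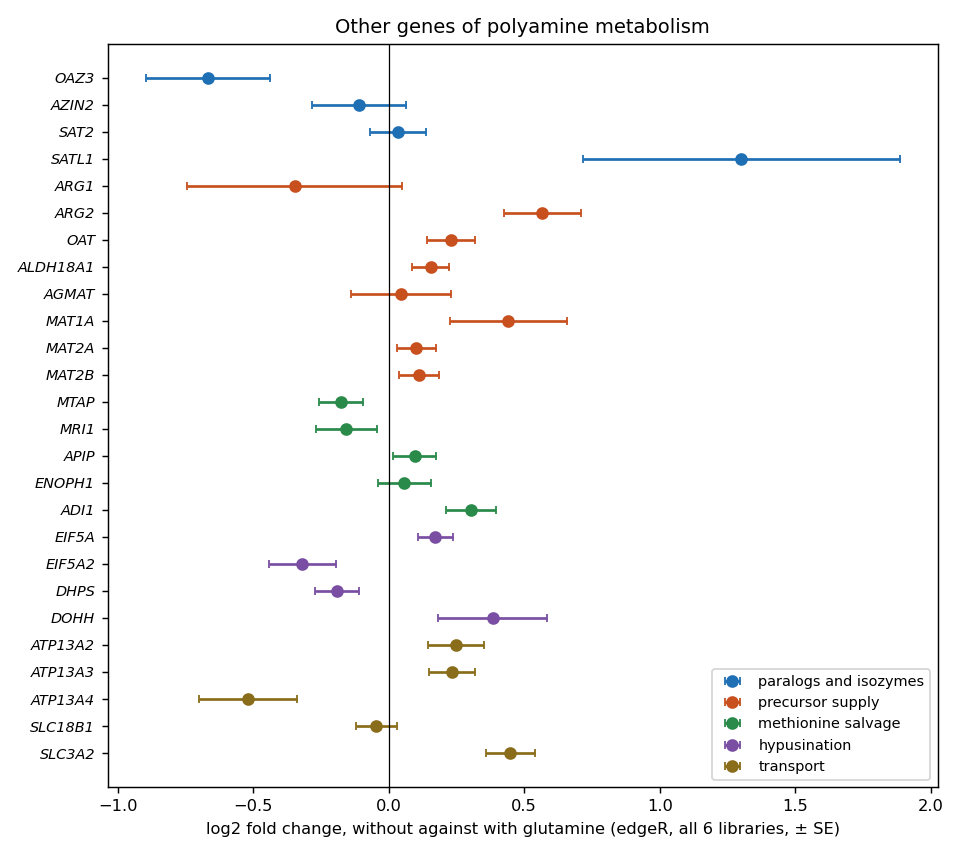
Log2 fold change (horizontal axis, without against with glutamine, edgeR with all 6 libraries, ± SE) of the 26 other polyamine genes tested, coloured by group. SATL1 (1.30, SE 0.58) stands furthest right, followed by ARG2 (0.57, SE 0.14) and SLC3A2 (0.45, SE 0.09), and no gene passed the test.

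The summed level of the dividing-cell markers was higher without glutamine in every library. The 6 markers summed to 1992, 1475 and 1604 CPM with glutamine and to 2198 to 2397 CPM without. Of the 6, 4 lay higher without overlap, among them CDK1 and PCNA. Of all genes, 17.3% lay higher without overlap and 34.2% in either direction. MKI67 and MCM2 overlapped. All 6 had positive log2 fold changes, from 0.07 to 0.61, edgeR called 0 of them with all libraries and 5 without replicate 1 with glutamine, against 41.3% of all genes and 22.3% higher, and none was at 0 in any library. The 5 presomitic and somite markers summed to 60.7, 185 and 194 CPM with glutamine and to 63.9 to 83.7 CPM without. The 3 nephric duct markers summed to 79.3, 10.7 and 8.90 CPM with glutamine and to 96.7 to 134.6 CPM without. EMX2 made up most of the duct sum, at 65.2, 3.76 and 3.79 CPM with glutamine and 122, 111 and 84.9 CPM without. GATA3 was also higher without glutamine, whereas RET had overlapping groups and a log2 fold change of -0.31. In the presomitic and duct sums, and in every other marker sum, the first replicate with glutamine was closer to the deprived group than to its own. The same held for SAT1 and PAOX, whereas for AMD1, SMS and SLC3A2 that replicate lay with its own group. For ODC1, SRM, OAZ1 and AZIN1 it was the lowest of all libraries. The 5 pluripotency markers summed to 19.1 to 29.95 CPM with glutamine and 20.5 to 25.6 CPM without. The 3 neural markers reached at most 4.76 CPM and the 3 endoderm markers at most 0.96 CPM. The endoderm gene FOXA2 was at 0 in all libraries with glutamine and at 3 or 4 counts without, too few to pass the filter. SOX17 had 23, 62 and 58 counts with glutamine and 21, 15 and 12 without, and FOXA1 had overlapping groups. The part of cell composition or division in the differences was not tested, and in bulk RNA fewer cells of a type and less RNA per cell cannot be told apart.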

How the data were processed

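The authors deposited raw counts per Ensembl gene for 6 libraries, 3 with and 3 without glutamine, each read as single 50-nt ends per the labels. The submitters' processing notes name cutadapt, Trim Galore, FastQC, STAR 2.5.2b, DESeq2 and GRCh38. The counting program, annotation, strand setting and treatment of multiply aligned reads are not given in the sources used here. Pseudogene copies of AMD1 and SRM had at most 16 counts in a library. The table's headings read day 0 and day 9 although every label says day 9, and each sample's description links it to a heading (day 0 being with glutamine). Every direction rests on that link. A deposited table of normalized values was not used.

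Symbols, positions and lengths came from GENCODE 29. Of 60107 IDs 56531 matched, and the rest held 0.148% of counts. Counts were tested with edgeR 4.0.16 in R 4.3.3 (quasi-likelihood F test, legacy = FALSE, filterByExpr by group, TMM scaling, Benjamini-Hochberg adjustment over 22613 genes, threshold 0.05). SEs were derived from the fold change and its F statistic. CPM are counts over the TMM-scaled library size, RPKM divide them by the length of the longest APPRIS principal transcript, and a prior count of 2 was added for correlations. DESeq2 1.42.0, limma-voom (limma 3.58.1), other scalings and filters, a replicate block and each library left out were alternatives. Scripts were tested on simulated data.

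The genes and lists were chosen with earlier results of these data known. The text names all 10 polyamine genes, up to 4 genes of each related group by absolute log2 fold change, and the 3 genes most like ODC1 and SAT1. ALDH18A1 falls outside this rule and was named after its values were seen.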

Additional observations from a re-analysis of the deposited data

How the results depend on the processing

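Over all genes edgeR called 1, and it was 0 under upper quartile scaling, library size only, edgeR's legacy setting, limma-voom and the replicate block, 2 with no filter, and 3041 with DESeq2. DESeq2 without replicate 1 with glutamine, an alternative chosen after seeing the data, called 8540. Leaving out 1 library gave 0 to 9573 called genes, the highest without replicate 1 with glutamine and 17 without replicate 1 of the other group. For the 10 polyamine genes the count was 0 in all edgeR and limma-voom fits with 6 libraries, 3 with DESeq2, 4 with DESeq2 without replicate 1 with glutamine, and 0 to 4 with 1 library left out. For the 26 related genes it was 0, 2 with DESeq2, 9 with DESeq2 without that library, and 0 to 11 with 1 library left out. The number of polyamine genes with no overlap was 3 to 5 with 1 library left out, and 5 arose only without replicate 1 with glutamine, by ODC1 (lower) and PAOX (higher).

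AMD1, SMS, SAT1, PAOX and ODC1 kept their direction in all 16 alternatives, with log2 fold changes of 0.33 to 0.43, 0.31 to 0.42, 0.41 to 0.77, 0.11 to 0.47 and -0.23 to -0.0026. Of 160 values for the 10 genes, 127 kept both direction and call, 11 passed the threshold in addition and 22 changed sign. The sign changes were in 5 genes near 0, and the cause was not tested. SRM was 0.0014 under limma-voom, 0.0011 with the replicate block and -0.1216 to 0.0925 with 1 library left out. SMOX was 0.0024 with no filter, 0.0007 with DESeq2, 0.0165 with DESeq2 without replicate 1 with glutamine and -0.0334 to 0.0194 with 1 library left out. OAZ1 was -0.0078 and OAZ2 -0.0185 under upper quartile scaling, OAZ1 was -0.0606 with DESeq2 without that library, and they ran from -0.0574 to 0.1037 and from -0.0279 to 0.0654 with 1 library left out. AZIN1 was -0.0005 under median-of-ratios scaling, -0.0406 under upper quartile scaling, -0.089 with DESeq2 without that library and -0.0858 to 0.0735 with 1 library left out. Deviations of same-numbered samples from their group means had r of -0.021, 0 and 0.028. With 3 libraries a group, and replicate 1 with glutamine standing apart, this check could miss pairing. The numbers were not taken as pairs, and a replicate block was among the alternatives. PAOX had the fewest counts of the 10 genes, at 177 to 304 a library.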
